A study of Homo sapiens with 32 samples.

Results

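The genes of the G1 restriction point described here were the D-type cyclins CCND1, CCND2 and CCND3, the E-type cyclins CCNE1 and CCNE2, the kinases CDK4 and CDK6, and the CIP/KIP inhibitors CDKN1A (p21), CDKN1B (p27) and CDKN1C (p57). They were taken by symbol from the protein-coding rows of the deposited counts, and all 10 were found among 19815 protein-coding genes. The counts came from RNA-Seq of total mRNA (T) and of mRNA bound to polysomes (P) in 2 human breast cell lines, with 2 libraries in each of 8 groups per line and 32 libraries in all. The immortalised breast epithelial line MCF10A is not tumourigenic. MDA-MB-231 was derived from triple-negative breast cancer that had spread. Cells stayed in normoxia without drug (N), in 0.5% O2 for 24 hours without drug (H), in normoxia with the mTOR kinase inhibitor PP242 at 2.5 µM for 3 hours (NPP), or in 0.5% O2 for 24 hours with the same 3 hours of PP242 (HPP). Every group of both lines grew in DMEM with serum, and the MCF10A medium also held EGF, hydrocortisone, cholera toxin and insulin, so that line and medium cannot be told apart. Per the study's methods, PP242 was dissolved in DMSO and control cells received an equal amount of this vehicle. Total counts ran from 18340916 to 46032327 per library. In bulk libraries such as these, fewer cells in a cycle phase and less RNA per cell cannot be told apart.

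Cyclins D and E are the activating subunits of the kinases that carry cells from G1 into S phase. Cyclin D pairs with CDK4 or CDK6 and cyclin E with CDK2, and together they phosphorylate the pocket protein RB1, which releases E2F factors to drive genes of DNA replication. The CIP/KIP proteins bind cyclin-CDK complexes and hold back CDK2. Signalling through mTOR is known for raising cyclin D1 synthesis, and p27 and p57 are known as inhibitors of quiescent cells.

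The labels were first checked against marker genes. CA9 and NDRG1, both targets of hypoxia-inducible factor, rose under H and HPP in T and P of both lines. The log2 fold change (log2FC) of CA9 lay between 5.46 and 6.20, and that of NDRG1 between 3.75 and 5.16. Under NPP, CA9 did not pass the test in any library set, whereas NDRG1 rose in MCF10A (1.80 ± 0.35 in T, 2.09 ± 0.36 in P). For PP242, the translation machinery genes EEF1A1, EEF2, RPS6 and RPL11 were checked in P. Under HPP, 3 of these 4 fell in MCF10A and 4 of 4 in MDA-MB-231. RPS6, a ribosomal protein gene whose translation depends on mTOR, fell by 2.71 (adjusted p = 0.0046) on the log2 scale in P of MCF10A. In P of MDA-MB-231 it fell by 2.07 (adjusted p = 1.4e-05). Its values in T under HPP were 0.34 and −0.18, neither past the test. Under NPP it fell in P of MDA-MB-231 (−1.43 ± 0.20, adjusted p = 0.0011). In P of MCF10A under NPP it had −1.83 ± 0.51 and did not pass (adjusted p = 0.12), nor did EEF1A1, EEF2 or RPL11 there. The basal keratins KRT5 and KRT14 marked the MCF10A libraries, where KRT5 had a median CPM (counts scaled to a common library depth) of 2118 against 0 in MDA-MB-231. The epithelial genes CDH1 and EPCAM, and the basal factor TP63, were near absent in MCF10A, with medians of 0.09, 0.34 and 0.05 CPM, while the mesenchymal gene VIM had 2948 CPM and PGR was at 0 in all 16 libraries. The keratins fit the label of MCF10A, whereas the near absence of CDH1, EPCAM and TP63 goes against that of a basal epithelial line. The name MCF10A therefore stands here for the libraries labelled so, and each comparison between the lines rests on that label. MDA-MB-231 had VIM at a median of 3525 CPM, CDH1 at 0.19, ESR1 at 0.13 and PGR at 0.21. The mesenchymal gene ZEB1 had a median of 53 CPM in MDA-MB-231 and 21.2 in MCF10A. Other markers went against the labels of both lines. The mesenchymal gene FN1 had 117 CPM in MDA-MB-231 and 3390 in MCF10A, and EPCAM had 11.1 and 0.34.

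Some MCF10A libraries stood apart by gene length. In the second NPP library of T, genes in the top decile of summed exon length had a median deviation of −0.72 (log2) from their line means, and those in the bottom decile one of 0.55. The second HPP library of T followed, at −0.47 and 0.32. In P the first normoxic library had −0.31 and 0.57, and the first H library −0.14 and 0.54. In MDA-MB-231 the top decile kept between −0.16 and 0.09 over 16 libraries, and the bottom decile between −0.17 and 0.28. Other MCF10A libraries lay outside these ranges too. Examples are the first H (0.31 and −0.23) and first NPP library of T (0.29 and −0.38), and the second HPP library of P (0.18 and −0.37). Leaving out the second NPP library of T, no member passed the test under NPP in T of MCF10A, as was the case with it. Without the second HPP library of T, the T calls of CCND1 and CCNE2 under HPP (adjusted p = 0.11 and 0.066) and of CCND1 and CCNE1 between HPP and H (adjusted p = 0.17 and 0.066) were lost. Without the first normoxic library of P, the P calls of CCND3 under HPP (adjusted p = 0.21) and of CDKN1A between HPP and H (adjusted p = 0.079) were lost. Without the first H library of P, the same 2 calls in P were lost (adjusted p = 0.050 and 0.23). No other member call within MCF10A was lost without the second HPP library of T or the first normoxic or first H library of P.

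Promoter sequences were found in RefSeq (GRCh38.p14) for 6 members, CDKN1A, CDKN1B, CDK4, CDK6, CCND3 and CCNE1, in 9 entries. The 250 bases before the start are shown for 2 inhibitors with calls in MDA-MB-231, for the kinase CDK4, which edgeR called in no treatment contrast, and for CCNE1, which fell in MCF10A. The start is that of RefSeq, which for CDKN1A, CDKN1B and CDK4 lies inside the longer span that GENCODE gives the gene. Capitals mark the core letters of the hypoxia response element, ACGTG or GCGTG, on either strand.
CDKN1A, chr6:36678464-36678713, plus strand: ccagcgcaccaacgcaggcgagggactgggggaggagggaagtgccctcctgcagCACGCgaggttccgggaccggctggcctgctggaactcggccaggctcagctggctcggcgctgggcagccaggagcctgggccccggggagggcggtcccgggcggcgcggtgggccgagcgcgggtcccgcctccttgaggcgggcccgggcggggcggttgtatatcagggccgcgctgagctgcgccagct
CDKN1B, chr12:12717118-12717367, plus strand: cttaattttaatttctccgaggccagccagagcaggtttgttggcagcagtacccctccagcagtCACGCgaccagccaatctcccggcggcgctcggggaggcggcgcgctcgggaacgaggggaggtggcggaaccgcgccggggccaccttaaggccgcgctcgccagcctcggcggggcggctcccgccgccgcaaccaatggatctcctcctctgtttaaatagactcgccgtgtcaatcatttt
CDK4, chr12:57752311-57752560, minus strand: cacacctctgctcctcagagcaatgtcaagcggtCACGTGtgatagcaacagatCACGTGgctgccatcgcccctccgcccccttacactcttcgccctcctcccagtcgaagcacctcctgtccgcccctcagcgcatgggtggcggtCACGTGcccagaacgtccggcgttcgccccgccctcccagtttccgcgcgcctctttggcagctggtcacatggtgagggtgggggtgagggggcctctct
CCNE1, chr19:29811741-29811990, plus strand: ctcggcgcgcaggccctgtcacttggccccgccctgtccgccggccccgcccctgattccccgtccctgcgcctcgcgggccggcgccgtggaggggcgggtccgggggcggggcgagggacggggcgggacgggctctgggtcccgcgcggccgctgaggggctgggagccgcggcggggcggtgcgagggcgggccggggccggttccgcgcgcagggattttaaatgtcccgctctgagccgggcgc
The core occurred in 43.2% of 35116 promoters of this length, so its single match in CDKN1A and in CDKN1B is common. Of the entries not shown, a CDK6 entry held 3 matches and a CCND3 entry 1, and the rest held 0. CDK4 held 3 copies of the E-box CACGTG, each of which contains the core on both strands, and 6.34% of promoters held an E-box. CCNE1 held no core and 7 copies of the GC box GGGCGG, a motif found in 42.6% of promoters. The FOXO motif GTAAACA, present in 2.98% of promoters, had 0 matches in the 9 entries. These matches describe letters in a window and not bound sites.

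Levels were compared between genes per kilobase of exon, on a scale shared by both lines. In normoxic T of MCF10A, CDK4 was highest at 77.2 ± 6.2 CPM per kb (SD, n = 2), followed by CDKN1A at 69.2 ± 9.4 and CCND1 at 53.9 ± 5.9. The libraries of CDK4 and CDKN1A overlapped, and those of CDKN1A and CCND1 did not. CCND3 followed at 25.6 ± 4.5, CCNE1 at 10.1 ± 0.7 and CCNE2 at 9.97 ± 0.98, with overlapping libraries for the 2 E cyclins. CDK6, CDKN1C and CDKN1B lay between 2.73 and 3.18 and overlapped each other. In normoxic T of MDA-MB-231, CCND1 led at 94.6 ± 1.1 CPM per kb, above CDK4 at 61.1 ± 5.9. CCND3 at 25.2 ± 0.2 and CDKN1A at 24.1 ± 2.6 overlapped, CCNE2 had 10.4 ± 1.3, CDKN1B 5.40 ± 0.93 and CCNE1 4.28 ± 0.05. CDK6 had 2.57 ± 0.75 and CDKN1C only 0.56 ± 0.20 CPM per kb. With the length of the longest coding transcript in place of exon length, some ranks in MCF10A changed. There CCND3 ranked above CCND1, CCNE2 above CCNE1, CDKN1B above CDKN1C, and CDKN1C above CDK6.

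In the joint fit of 32 libraries, edgeR's quasi-likelihood test with Benjamini-Hochberg adjustment called 5 of 10 members between MDA-MB-231 and MCF10A in normoxic T. This count lies near the 40.7% of 14298 genes called there. The 5 included all 3 CIP/KIP inhibitors. Of the 5, CCND2 passed the filter on low counts only through MDA-MB-231, so that its call is no support for a difference. CDKN1C was lower in MDA-MB-231, with a log2FC of −2.36 ± 0.36 (SE) and an adjusted p of 1.7e-05. CDKN1A was lower as well, at −1.52 ± 0.27 (adjusted p = 0.00010), and so was CCNE1, at −1.24 ± 0.22 (adjusted p = 0.00011). CDKN1B was higher in MDA-MB-231 at 0.98 ± 0.30 (adjusted p = 0.011). Its call was lost without the second MCF10A library (0.80, adjusted p = 0.12) or the first MDA-MB-231 library (0.80, adjusted p = 0.10) of that group. CCND1 had 0.81 ± 0.34 and did not pass (adjusted p = 0.064), while DESeq2 called it (0.90, adjusted p = 0.017).

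CCND2 was close to silent in MCF10A, with 26 counts over 16 libraries, 6 of them at 0. In normoxic T it had 4 counts in MCF10A and 40 in MDA-MB-231, a ratio of depth-scaled counts of 17.4 with a 95% exact interval of 6.29 to 67.0 that covers counting error only. It was too low to be tested for treatment effects in MCF10A, where 9 of 10 members were tested. In MDA-MB-231 it kept between 0.65 and 2.84 CPM, and no treatment contrast of it passed the test. Its largest change there was 1.08 ± 0.35 under HPP in T (adjusted p = 0.055).

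**Figure D1:**
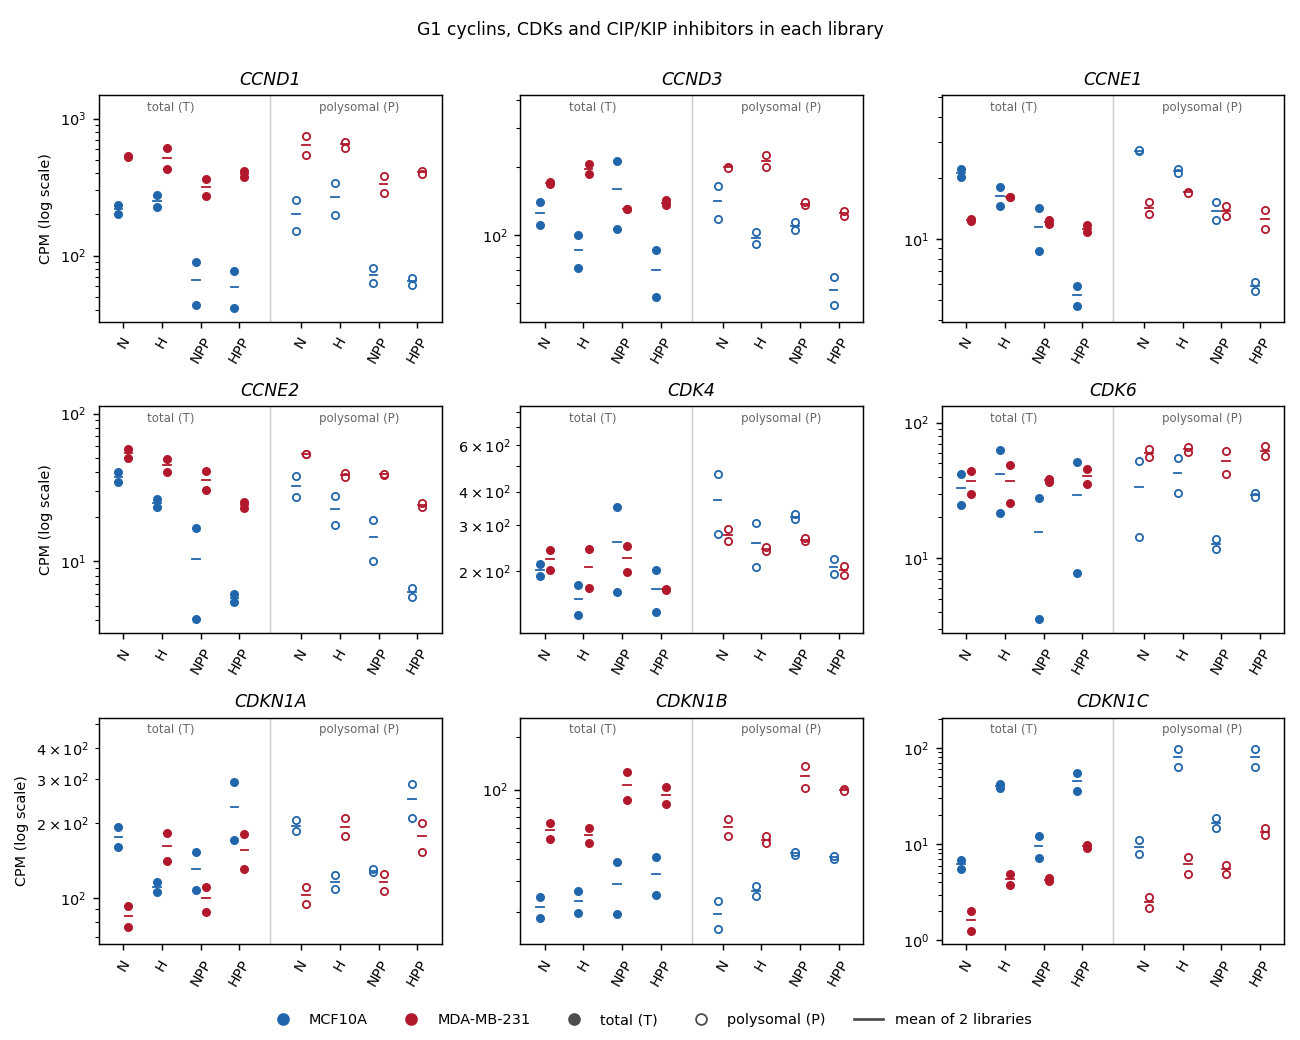
CPM (log axis, scaled within each line) of the 9 members tested in both lines, with a point for each library and a dash for the mean of 2. Filled points are total and open points polysomal RNA. CDKN1C in all treated groups lies above its normoxic libraries in both lines, and CCND1 lies below them in NPP and HPP.

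CDKN1C was the member that hypoxia raised in both lines. In T of MCF10A it had 6.89 and 5.48 CPM in N, and 41.8 and 38.0 in H. In P it went from 11.0 and 7.86 CPM to 96.4 and 63.3. The log2FC was 2.69 ± 0.38 in T (adjusted p = 0.0040) and 3.08 ± 0.38 in P (adjusted p = 0.0016), the single call among 9 members in each fraction, where 1.54% and 1.49% of 13124 genes were called. The gene lies on chromosome 11 from 2883213 to 2885775 on the minus strand (GRCh38), and encodes p57, which is imprinted and known for blocking G1 kinases.

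In MDA-MB-231 CDKN1C started lower, at 2.01 and 1.25 CPM in T, and reached 4.89 and 3.74 in H. In P it had 2.83 and 2.20 CPM in N and 7.39 and 4.94 in H. The groups did not overlap in either fraction, which with 2 libraries a side is no test. The log2FC was 1.38 ± 0.28 in T (adjusted p = 0.024) and 1.30 ± 0.26 in P (adjusted p = 0.017). It was 1 of 2 members called of 10 in each fraction, beside 1.27% of 13510 genes in T and 2.29% in P. The call in T of MCF10A was lost without either normoxic library (adjusted p up to 0.11), and each call in MDA-MB-231 was lost without any of 3 libraries (adjusted p up to 0.20), while the log2FC stayed at 0.95 or above. In fits to only the 4 libraries compared, the calls in P of MCF10A (adjusted p = 0.073) and in T and P of MDA-MB-231 (adjusted p = 0.21 and 0.083) were lost as well.

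CDKN1A, which encodes p21, was the other member called under H in MDA-MB-231. It had 76.7 and 92.8 CPM in T in N against 141 and 182 in H, and 94.4 and 110.7 against 177 and 209 in P. The log2FC was 0.93 ± 0.21 in T (adjusted p = 0.040) and 0.91 ± 0.20 in P (adjusted p = 0.032), and the call was lost in 4 and 3 of 16 fits that left out a library (adjusted p up to 0.33 and 0.19), that in T also in a fit to only the 4 libraries compared (adjusted p = 0.10). In MCF10A its hypoxic values were lower, without passing the test. There it had 160 and 192 CPM in T in N against 106.05 and 116 in H, and 186 and 205 against 123 and 108.97 in P, with log2FC of −0.66 ± 0.29 and −0.75 ± 0.29 (adjusted p = 0.42 and 0.29). The hypoxic libraries lay below the normoxic ones in both fractions of MCF10A and above them in MDA-MB-231. With 2 libraries a side such separation is no test of a change, and the share of all genes that showed it was not counted. No other member passed under H in either line. Their log2FC ran from −0.58 to 0.43 in MCF10A and from −0.48 to 0.78 in MDA-MB-231.

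**Figure D2:**
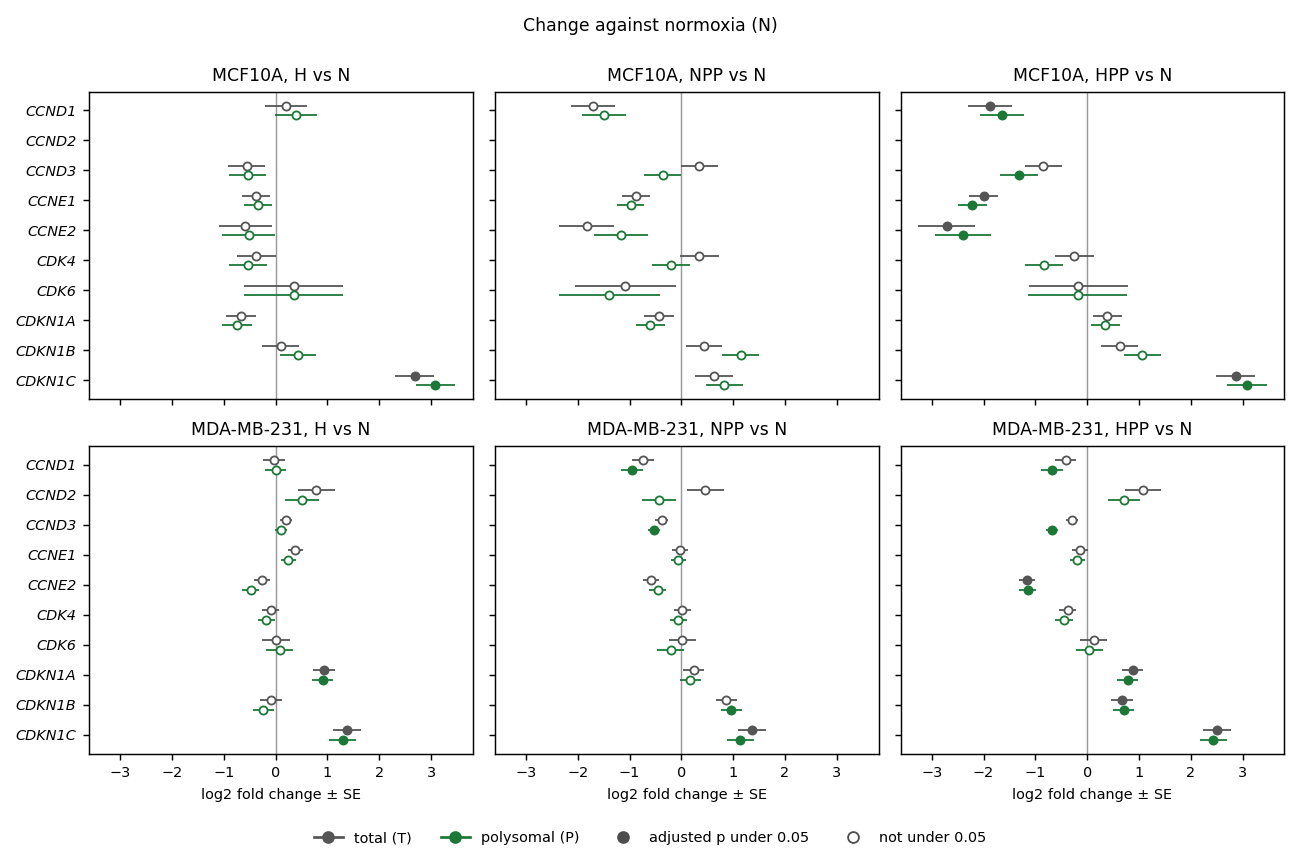
Log2 fold change against normoxia with its standard error (x axis) for each member (y axis), by line (rows) and treatment (columns), in total and polysomal RNA. Filled points had an adjusted p under 0.05. CDKN1C is called under H and HPP in both lines, all cyclins called under HPP are lower, and CCND2 has no points in MCF10A because it was not tested there.

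Hypoxia with PP242 brought the most calls. In MCF10A, 4 of 9 members were called in T and 5 in P, beside 14.9% and 22.2% of all genes tested. In MDA-MB-231, 4 of 10 were called in T and 6 in P, beside 13.2% and 19.4%. Cyclins made up 3 of the 4 in T and 4 of the 5 in P of MCF10A, all lower. In MDA-MB-231 the cyclins called were lower too, 1 in T and 3 in P, and the other 3 in each fraction were the inhibitors, all higher. The median log2FC of the members was −0.25 in T and −0.83 in P of MCF10A, and −0.01 and −0.07 in MDA-MB-231, where the medians of all genes tested were −0.01 and −0.04, and −0.05 and 0.01.

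CCND1, on chromosome 11 from 69641156 to 69654474, encodes cyclin D1 and is a frequent amplification target in breast cancer. In T of MCF10A it had 202 and 234 CPM in N against 76.8 and 41.7 in HPP, and in P 150 and 255 against 61.1 and 68.5. The log2FC was −1.88 ± 0.43 in T (adjusted p = 0.013) and −1.65 ± 0.42 in P (adjusted p = 0.017). In MDA-MB-231 it had 541 and 752 CPM in P in N against 412 and 397 in HPP, a log2FC of −0.68 ± 0.21 (adjusted p = 0.034). In T it had 523 and 534 against 375 and 417, which did not pass (−0.42 ± 0.21, adjusted p = 0.20). Normoxic and HPP libraries were apart in all of these groups, which with 2 libraries a side is no test. Leaving out a library cost the call in 2 of 16 fits in T and 3 in P of MCF10A and in 3 in P of MDA-MB-231, with adjusted p up to 0.11, 0.098 and 0.23.

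CCND3, which encodes cyclin D3, fell in P of both lines. In P of MCF10A it had 165 and 118 CPM in N against 65.2 and 48.8 in HPP, with a log2FC of −1.31 ± 0.36 (adjusted p = 0.024) that was lost without any of 4 libraries, at most at −0.98 (adjusted p = 0.21) without the first normoxic one, and also in a fit to only the 4 libraries compared (adjusted p = 0.051). In P of MDA-MB-231 it had 200.8 and 198 CPM against 121 and 128, with a log2FC of −0.68 ± 0.12 (adjusted p = 0.0017) that held in all 16 fits with a library left out. In T the values were −0.85 ± 0.36 for MCF10A and −0.29 ± 0.12 for MDA-MB-231, neither past the test (adjusted p = 0.14 and 0.12).

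CCNE1, the cyclin E1 gene on chromosome 19 from 29811991 to 29824312 whose promoter is shown above, was called lower in MCF10A by edgeR and in no contrast of MDA-MB-231. DESeq2 called it lower in HPP than in H in T of MDA-MB-231 (−0.51, adjusted p = 0.042). It had 20.1 and 22.1 CPM in T in N against 4.70 and 5.88 in HPP, and 27.1 and 27.5 against 5.58 and 6.16 in P. The log2FC was −2.00 ± 0.28 in T (adjusted p = 0.0010) and −2.21 ± 0.28 in P (adjusted p = 0.00041), and both held whichever library was left out. In MDA-MB-231 it had 12.2 and 12.5 CPM in T in N against 10.9 and 11.7 in HPP, and 13.3 and 15.3 against 11.3 and 13.8 in P. The log2FC there was −0.13 ± 0.15 and −0.19 ± 0.15 (adjusted p = 0.60 and 0.41).

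CCNE2, which encodes cyclin E2, fell in both lines and fractions. In T of MCF10A it had 40.0 and 34.5 CPM in N against 6.06 and 5.27 in HPP, and in P 27.1 and 37.9 against 5.77 and 6.61, with log2FC of −2.72 ± 0.55 and −2.39 ± 0.54 (adjusted p = 0.0073 and 0.0095). In T of MDA-MB-231 it had 57.6 and 50.0 CPM against 25.2 and 22.8, and in P 53.2 and 53.7 against 23.3 and 24.9, with −1.16 ± 0.16 and −1.15 ± 0.16 (adjusted p = 0.00050 and 0.00026). The MDA-MB-231 calls held whichever library was left out. In MCF10A the call in T was lost without the second HPP library (adjusted p = 0.066), and that in P without either HPP library (adjusted p = 0.059 and 0.071).

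Of the inhibitors, edgeR called CDKN1C higher under HPP in both lines, and CDKN1A and CDKN1B in MDA-MB-231. The differences between the lines in these 3 changes did not pass the test. CDKN1C had 35.7 and 54.5 CPM in T and 62.8 and 97.4 in P of MCF10A, and 9.91 and 9.11 in T and 14.7 and 12.3 in P of MDA-MB-231. Against the normoxic values above, its log2FC in T and P of MCF10A was 2.87 ± 0.38 and 3.09 ± 0.38 (adjusted p = 0.00078 and 0.00038). The same values for MDA-MB-231 were 2.51 ± 0.27 and 2.43 ± 0.26 (adjusted p = 8.2e-05 and 2.9e-05). All 4 calls held whichever library was left out. CDKN1C lay above its normoxic libraries under each treatment in both fractions and lines, in comparisons that share those normoxic libraries.

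CDKN1B, on chromosome 12 from 12685498 to 12722369, encodes p27, whose level is known to be set largely by protein breakdown through SKP2. In T of MDA-MB-231 it had 64.6 and 52.5 CPM in N against 103.9 and 82.9 in HPP, and in P 67.6 and 54.3 against 101.3 and 97.5. The log2FC was 0.67 ± 0.20 in T (adjusted p = 0.044) and 0.71 ± 0.20 in P (adjusted p = 0.026). These calls were lost in 7 and 3 of 16 fits with a library left out (adjusted p up to 0.26 and 0.18), and that in P also with an offset for transcript length chosen after the data were seen (0.61, adjusted p = 0.056). In MCF10A it had 24.5 and 18.5 CPM in T in N against 41.4 and 24.9, and 16.1 and 23.2 in P against 40.3 and 41.9. Its log2FC of 0.63 ± 0.35 and 1.07 ± 0.36 did not pass edgeR's test (adjusted p = 0.28 and 0.052), while DESeq2 called it in P (1.09, adjusted p = 0.010). CDKN1A in MDA-MB-231 had 181 and 131 CPM in T and 200 and 153 in P under HPP, with log2FC of 0.88 ± 0.20 and 0.78 ± 0.20 (adjusted p = 0.013 and 0.016). Each CDKN1A call was lost without either of 2 libraries (adjusted p up to 0.10 and 0.13). In MCF10A CDKN1A had 171 and 291 CPM in T and 210 and 287 in P under HPP, not past the test (0.39 ± 0.29 and 0.35 ± 0.29).

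Some cell type markers also changed under HPP in MCF10A. Of 11 genes on the list 8 were tested there, and 4 were higher in T (KRT14, KRT17, FN1 and VIM) and 3 in P (KRT14, KRT17 and FN1), beside 14.9% and 22.2% of all genes called in either direction. The summed level of the 11 genes in T went from 7072 and 5824 CPM in N to 17647 and 21994 in HPP, with FN1 or VIM the most abundant, while CDH1 and TP63 stayed near 0. In MDA-MB-231, 9 were tested, with FN1 and VIM higher in T and FN1 higher and EPCAM lower in P. Under H in MCF10A, 0 of 8 markers were called, though the summed level in T was 11796 and 11629 CPM, also above N. In P it was 10928 and 12599 CPM under H against 7449 and 5754 in N. The part of these markers in the cyclin and inhibitor values under H and HPP was not tested.

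PP242 in normoxia gave fewer calls. In MCF10A edgeR called 0 of 9 members in T and 0 in P, beside 0.648% and 0.823% of genes, although 3 and 5 members had an unadjusted p under 0.05 and DESeq2 called 2 and 3. DESeq2 called CCND1 and CCNE2 in T and CCND1, CCNE1 and CDKN1B in P. CCND1 had 89.4 and 43.8 CPM in T and 80.7 and 62.8 in P, all below the normoxic libraries, with log2FC of −1.71 ± 0.42 and −1.50 ± 0.42 (adjusted p = 0.12 in both). CCNE1 had 8.73 and 14.3 CPM in T and 15.2 and 12.4 in P, with −0.88 ± 0.27 and −0.98 ± 0.27 (adjusted p = 0.24 and 0.11). With the replicate number as a block within each fraction, 1 member was called in T and 3 in P.

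In MDA-MB-231, edgeR called 1 of 10 members under NPP in T and 4 in P, beside 0.555% and 1.95% of genes. DESeq2 called 5 in T, adding CCND1, CCND3, CCNE2 and CDKN1B to CDKN1C, and 4 in P. CDKN1C had 4.17 and 4.41 CPM in T and 6.09 and 4.87 in P, with log2FC of 1.36 ± 0.28 (adjusted p = 0.039) and 1.13 ± 0.26 (adjusted p = 0.036). CDKN1B rose in P to 136 and 101.5 CPM, a log2FC of 0.96 ± 0.20 (adjusted p = 0.024). Its value in T was of like size, 127 and 86.8 CPM and 0.86 ± 0.21, but did not pass edgeR's test (adjusted p = 0.085). Of the 3 D cyclins 2 fell in P, CCND1 to 287 and 383 CPM (−0.95 ± 0.21, adjusted p = 0.028) and CCND3 to 136 and 140 CPM (−0.53 ± 0.12, adjusted p = 0.031), while CCND2 had −0.43 ± 0.33 (adjusted p = 0.64). None of these 5 calls held in all 16 fits with a library left out. They were lost in 12 fits for CDKN1C in T, 9 for CDKN1C in P, 8 for CCND3, 3 for CDKN1B and 2 for CCND1, with adjusted p up to 0.47, 0.35, 0.22, 0.30 and 0.29. In fits to only the 4 libraries compared all 5 were lost, with adjusted p from 0.060 to 0.22. The CCND3 call was also lost without a filter on low counts (adjusted p = 0.094), and both CDKN1C calls with all gene classes (adjusted p = 0.071 in T and 0.050 in P).

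HPP was also compared with H, to follow PP242 at low oxygen. In MCF10A 2 of 9 members were called in T and 3 in P, beside 3.74% and 6.5% of genes. In T of MCF10A CCND1 had 275 and 225 CPM in H, and in P 197 and 336, all above the HPP libraries. It was lower in HPP, with log2FC of −2.08 ± 0.43 in T and −2.04 ± 0.43 in P (adjusted p = 0.020 and 0.018), and so was CCNE1, with −1.62 ± 0.27 and −1.88 ± 0.28 (adjusted p = 0.0080 and 0.0039). CDKN1A was higher in P, 1.1 ± 0.29 (adjusted p = 0.044), a call lost in 12 of 16 fits with a library left out (adjusted p up to 0.31), without a filter on low counts (adjusted p = 0.081) and with all gene classes (adjusted p = 0.056). CDKN1C had 0.18 ± 0.35 in T and 0.01 ± 0.35 in P (adjusted p = 0.89 and 0.995), which at this SE does not show that the groups were alike. The CCND1 calls were lost in 4 and 3 such fits (adjusted p up to 0.17 and 0.13) and that of CCNE1 in T in 3 (adjusted p up to 0.11). DESeq2 called 8 over both fractions, adding CCNE2 in both and CDKN1A in T. No member was called in a fit to only the 4 libraries compared, and 9 calls over both fractions were made with the replicate number as a block within each fraction.

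In MDA-MB-231, 3 of 10 members were called between HPP and H in T and 5 in P, beside 3.78% and 11.5% of genes. CDKN1C was higher in HPP by 1.13 ± 0.25 in T and 1.14 ± 0.24 in P (adjusted p = 0.022 and 0.0083). CCND3 had 186 and 207 CPM in T and 201.2 and 227 in P of H, and was lower in HPP, with log2FC of −0.50 ± 0.12 and −0.78 ± 0.12 (adjusted p = 0.033 and 0.00097), and so was CCNE2, with −0.90 ± 0.16 and −0.67 ± 0.16 (adjusted p = 0.0099 and 0.015). CDKN1B was higher and CCND1 lower in P, with log2FC of 0.94 ± 0.21 and −0.68 ± 0.21 (adjusted p = 0.0094 and 0.048). DESeq2 also called CCNE1 lower and CDKN1B higher in T (adjusted p = 0.042 and 0.0091). CDKN1A did not differ past the test (−0.05 ± 0.20 in T, −0.13 ± 0.20 in P). Only the CCND3 call in P held whichever library was left out. The others were lost in 2 to 9 of 16 fits, CCND3 in T most often (adjusted p up to 0.27), and the T calls of CCND3 and CCNE2 also in a fit to only the 4 libraries compared (adjusted p = 0.26 and 0.055). Without a filter on low counts the T call of CCND3 was lost (adjusted p = 0.12), and with all gene classes that of CCND1 in P (adjusted p = 0.060).

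The kinases passed edgeR's test in no treatment contrast, and DESeq2 called CDK4 lower under HPP in P of MDA-MB-231 (−0.48, adjusted p = 0.023). CDK4 had a log2FC between −0.83 and 0.35 against N for MCF10A, and between −0.45 and 0.01 for MDA-MB-231, with the lowest value in P under HPP in both lines (adjusted p = 0.13 and 0.073). It had 465 and 278 CPM in P of MCF10A in N against 222 and 195 in HPP. In P of MDA-MB-231 it had 289 and 261 against 194 and 209. The libraries did not overlap in either line, which with 2 libraries a side is no test. CDK6 was measured with little precision in MCF10A, where its SE was 0.95 to 0.97. Its exons sum to 12239 bases, the longest of the 10 members, and its libraries ran from 3.56 CPM in the second NPP library of T to 62.4 in the first H library of T. The former is the library in which the longest genes were lowest, and its part in CDK6 was not tested. In MDA-MB-231 CDK6 kept between 25.7 and 66.9 CPM, and treated and normoxic libraries overlapped in 6 of 6 comparisons.

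Translational efficiency (Te) was the change in P minus the change in T. Libraries of T and P were each scaled to a common depth, so changes in P and in Te are relative to the average mRNA. A change in translation shared by all mRNAs would be removed by this scaling. No member was called for Te in any of the 6 comparisons by edgeR, and DESeq2 also called 0 of those to which it gave an adjusted p. DESeq2 gave no adjusted p to 5 of 9 members under HPP and 8 of 9 under NPP in MCF10A, and to 2 and 5 of 10 in MDA-MB-231. In MCF10A 0 of 9 members had even an unadjusted p under 0.05 for any of the treatments, and 0% of genes were called in each, with SE of 0.38 to 1.35. Of 10 members tested in MDA-MB-231, 0 were called, beside 0.0148% of genes under H, 0.696% under HPP and 0.34% under NPP, with SE of 0.17 to 0.49. The lowest unadjusted p was that of CCND3 under HPP in MDA-MB-231, 0.037, with a Te change of −0.38 ± 0.17 (adjusted p = 1.0). It was the single member with an unadjusted p under 0.05. Te changes of the members ran from −0.71 to 0.71 for MCF10A, and from −0.89 to 0.13 for MDA-MB-231. With SE of this size, moderate Te changes could not be detected, above all in MCF10A.

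**Figure D3:**
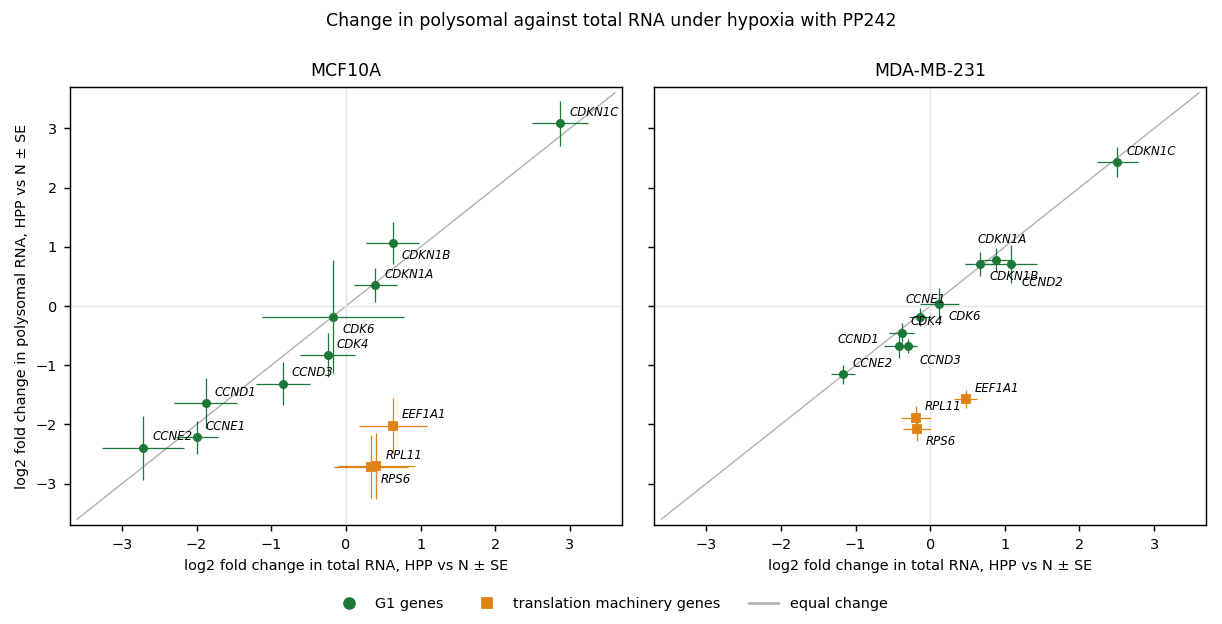
Log2 fold change under HPP in polysomal (y axis) against total RNA (x axis) with standard errors, by line. The diagonal marks equal change, and the translation machinery genes EEF1A1, RPS6 and RPL11 are plotted for reference, with RPS6 at −2.71 in P and 0.34 in T of MCF10A. No member was called for Te in either line, and no gene at all in MCF10A.

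Polysomal and total RNA were also compared in normoxia. Of the members, edgeR called 0 of 9 in MCF10A, beside 0% of genes, and 0 of 10 in MDA-MB-231, beside 13.1%. An unadjusted p under 0.05 was seen for 1 member in MCF10A, CDK4 (0.87 ± 0.37), and for 2 in MDA-MB-231, CDK6 (0.70 ± 0.27) and CCND2 (0.81 ± 0.36). DESeq2 called 0 members in the first line and CDK6 in the second (adjusted p = 0.032). With the replicate number as a block within each fraction, edgeR called 1 member in each line.

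Whether the lines responded differently was tested as a difference of treatment effects, MDA-MB-231 minus MCF10A. CCND2, which passed the filter on low counts only through MDA-MB-231, is not counted here. Under HPP, CCNE1 alone of the 9 members tested in both lines was called by edgeR, with 1.95 ± 0.31 in T (adjusted p = 0.0017) and 2.00 ± 0.31 in P (adjusted p = 0.00094), beside 3.31% and 3.6% of genes. Both held whichever of 32 libraries was left out. CCND1 had 1.57 ± 0.48 in T and did not pass (adjusted p = 0.082), while DESeq2 called it (1.43, adjusted p = 0.044). With the replicate number as a block within each fraction, 3 line differences were called in T and 3 in P over the 3 treatments, in place of 1 and 1.

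Under H, 0 of the 9 members tested in both lines were called for a line difference by edgeR in T and in P, beside 0.266% and 0.329% of genes. Of these members 3 and 2 had an unadjusted p under 0.05, and DESeq2 called 1 and 2. CDKN1A came closest, with 1.64 ± 0.38 in T and 1.58 ± 0.38 in P (adjusted p = 0.078 and 0.081), and DESeq2 called it in both fractions (adjusted p = 0.015 and 0.012). CDKN1C, which rose in both lines, had differences of −1.26 ± 0.48 and −1.87 ± 0.47 (adjusted p = 0.47 and 0.11), and DESeq2 called it in P (adjusted p = 0.035). Under NPP 0 of the same 9 were called in T and in P, beside 0.056% and 0.126% of genes, with an unadjusted p under 0.05 for 3 and 2 members and 0 calls by DESeq2. Over the 3 treatments, the line differences called in T rose from 1 to 6 without the first and to 4 without the second NPP library of T in MCF10A.

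**Figure D4:**
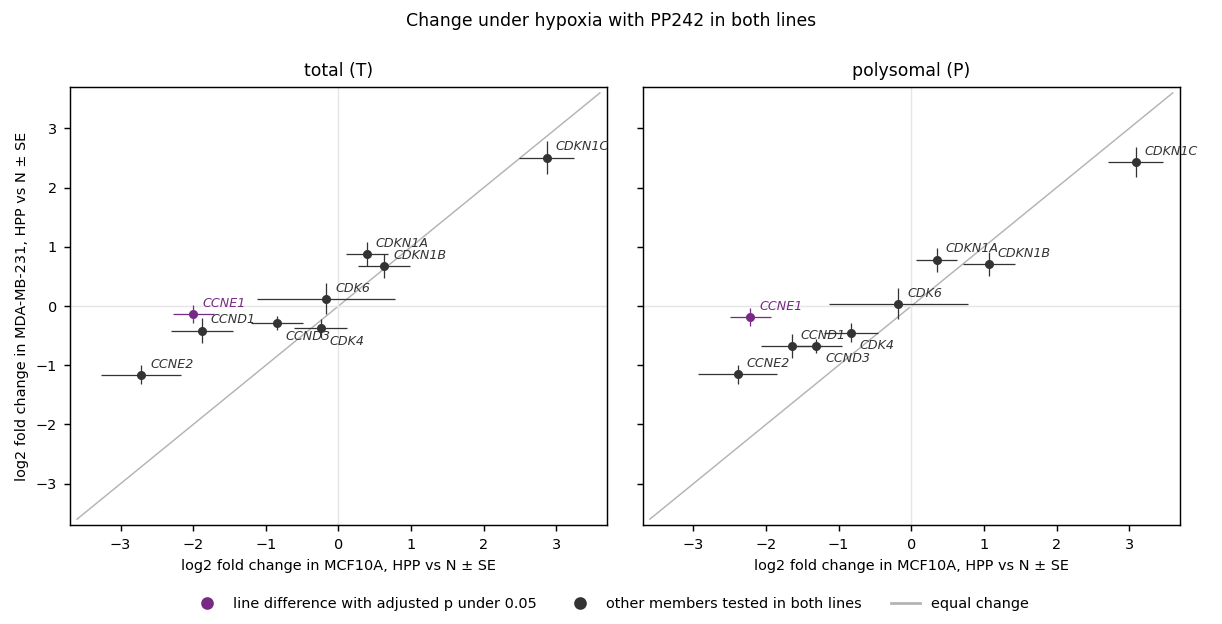
Log2 fold change under HPP in MDA-MB-231 (y axis) against MCF10A (x axis) with standard errors, in total and polysomal RNA, for the 9 members tested in both lines. CCNE1, near 0 in MDA-MB-231 and near −2 in MCF10A, is the member whose line difference passed the test.

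The wider G1 pathway was followed with 7 lists of 49 genes, of which 47 were tested in each line. Under H, 0 were called in MCF10A and 1 in MDA-MB-231 in each fraction, the pocket protein gene RBL1, lower by 0.64 in T and 0.75 in P on the log2 scale, a share near the 1.27% and 2.29% of all genes called there. Under HPP, 10 were lower and 0 higher in T of MCF10A, and 13 lower and 1 higher in P. In MDA-MB-231, 9 were lower and 2 higher in T, and 10 lower and 2 higher in P. Over all genes tested, 14.9% and 22.2% were called in T and P of MCF10A, and 13.2% and 19.4% in MDA-MB-231, in either direction. The list medians under HPP were −0.64 in T and −0.51 in P for MCF10A, and −0.19 and −0.18 for MDA-MB-231, beside −0.01, −0.04, −0.05 and 0.01 over all genes.

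Of 10 E2F and DP factors, 5 fell in T and 4 in P of MCF10A, and 3 in each fraction of MDA-MB-231. Of 10 E2F target genes, 3 were lower in T and 6 in P of MCF10A, and 2 and 3 in MDA-MB-231. In MDA-MB-231 the counts of E2F targets lie near the 13.2% and 19.4% called over all genes, and so does that of the factors in P. Over the 7 lists, 6 genes fell in T of both lines and 7 in P. Of these CDC25A, the phosphatase that activates CDK2, fell most in both fractions, from 17.5 and 24.7 CPM in T of MCF10A to 2.53 and 2.08, and from 52.2 and 56.8 to 15.6 and 16.6 in MDA-MB-231. Its log2FC was −3.19 ± 0.34 and −1.76 ± 0.15 in T, and −3.33 ± 0.34 and −1.86 ± 0.15 in P. CDC6, which loads the replicative helicase, fell by 2.10 and 1.27 in T and by 2.30 and 1.39 in P on the log2 scale. Of 8 ubiquitin ligase parts 2 fell in each fraction of both lines, SKP2 and CUL1, and FBXO31 rose in P of MCF10A (0.86). Over all genes, 14.9% and 22.2% were called in T and P of MCF10A. The 2 of 8 in P of MDA-MB-231 lie near the 19.4% called there, and no excess over these shares was tested. SKP2, the receptor of the ubiquitin ligase that acts on p27, fell by 1.36 and 1.41 in T and by 1.41 and 1.21 in P. Of the 4 other G1 kinase subunits CCNH fell in P of MCF10A (−1.03), and of 3 pocket proteins RBL1 fell in MDA-MB-231 (−0.66 in T, −0.51 in P). E2F2 fell by 2.82 and 1.01 in T and by 2.87 and 1.25 in P.

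Under NPP, CDC25A and CDC6 fell in T and P of MCF10A and in P of MDA-MB-231, and CDC25A alone of these in T of MDA-MB-231. The p53 target list showed 0 of 10 calls by edgeR in MCF10A for each treatment against N. Over all genes, 1.54% and 1.49% were called in T and P under H, and 0.648% and 0.823% under NPP. Under HPP these shares were 14.9% and 22.2%. For HPP against H, 1 was higher and 1 lower in T and 2 were higher in P of MCF10A, beside 3.74% and 6.5% of all genes. In MDA-MB-231, 1 of the 10 was higher and 1 lower under HPP in each fraction, near the share over all genes, and 2 were higher under NPP in each, beside 0.555% and 1.95% of genes. BBC3, a gene of apoptosis, rose under HPP (1.77 in T, 1.54 in P) and under NPP (1.69 and 1.71), and GDF15 rose under NPP (1.2 and 1.27). Under HPP, ZMAT3 fell in T by 0.82 and SESN2 in P by 0.67. Of the INK4 inhibitors, CDKN2A and CDKN2B had medians of 0 CPM in both lines and were not tested. CDKN2D rose under HPP in MDA-MB-231 (1.03 in T, 0.88 in P), while CDKN2C passed in no contrast against N.

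For each member tested in both lines, the genes with the most similar pattern were sought over the 16 libraries of each line among 12374 genes, ranked by the smaller of 2 Pearson correlations. These describe libraries that share treatments, depth and length trends. CCNE2 ran with the replication factor gene MCM10 (r = 0.93 for MCF10A, 0.96 for MDA-MB-231), UTP15 and SKP2. CDKN1C ran with the histone genes HIST1H2BD (0.96 and 0.95) and HIST1H2AC (0.94 and 0.95) and with ANG. CDKN1B ran with ATXN3 (0.92 and 0.93) and KLHL24, CCND1 with ADAM19 (0.91 and 0.92), KLHL18 and CDV3, and CCND3 with POLR3K (0.88 and 0.88), MANEAL and TEAD4. CCNE1 ran with TRIM27 (0.97 and 0.85), TIGAR and ISOC1, and CDK4 with the mitochondrial ribosomal gene MRPS7 (0.98 and 0.95), MGST1 and NOL7. CDK6 ran with ARHGEF12 (0.94 and 0.90), PTPN14 and KMT2C. The weakest likeness was that of CDKN1A, with CLDN4 (0.76 and 0.92), TMEM217 and PRKD2.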

How the data were processed

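RNA-Seq counts of 32 libraries were used as deposited. The authors enriched poly(A) mRNA, mapped paired reads to GRCh38 (STAR v2.5.1b, GENCODE v24), and deposited expected counts per gene from RSEM v1.2.28, held as whole numbers without normalisation. The processing notes in the labels name GRCh37 instead. The files hold no coordinates, and gene positions and lengths here are those of GENCODE v44 on GRCh38. RSEM shares reads among similar genes. A stranded protocol is not given in the sources used here, so antisense reads cannot be told apart.

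The tests used edgeR 4.0.16 in R 4.3.3, with DESeq2 1.42.0 as an alternative. Protein-coding genes that passed filterByExpr were scaled by TMM and fitted in 8 groups per line (13124 genes in MCF10A, 13510 in MDA-MB-231), and in 16 groups jointly for line differences (14298 genes). Quasi-likelihood p-values were adjusted over all genes by Benjamini-Hochberg, with a threshold of 0.05. Shares of all genes called are those of these edgeR fits, also where a DESeq2 count stands near them. SE is the log2FC divided by the root of F. CPM are scaled within a line, except for levels per kilobase and cell type markers, which use the joint scale. Groups of 2 allow no permutation p under 0.333, so libraries of 2 groups that lie apart are described and not tested. The share of all genes whose libraries lay apart was not counted. Replicates are labelled biological, so p-values measure the spread between these libraries. Deviations of same-numbered libraries from their group means correlated over 0.1 in 6 of 6 pairs in T of MCF10A, so that the numbers pair those libraries by the data and not by a stated batch. The members and lists were chosen with earlier results of these data known. List genes are named where called in the same direction in both lines under HPP (the first 4 per fraction by the smaller log2FC), and the others named were picked after their values were seen. Among the genes of similar pattern, 1 is not reported here. Alternatives were DESeq2, other filters and thresholds, blocks, a fit to the compared libraries, other scaling or lengths, and each library left out. The scripts were first tested on simulated data. No pair of libraries held identical counts. A count of 3 corresponds to 0.164 CPM or less in every library, and covers counting error only.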

Additional observations from a re-analysis of the deposited data

Results flagged for a closer look

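The response of CCNE1 to HPP differed between the lines by the test of the difference itself. The difference, MDA-MB-231 minus MCF10A, was 1.95 in T (adjusted p = 0.0017) and 2.00 in P (adjusted p = 0.00094). CCNE1 had log2FC of −2.00 and −2.21 in MCF10A, with HPP libraries below normoxic ones in both fractions, and of −0.13 and −0.19 in MDA-MB-231. The normoxic level was also higher in MCF10A, at 10.1 CPM per kb against 4.28, and under HPP it was lower than in MDA-MB-231.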

How the results depend on the processing

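Of 50 called member contrasts, 18 kept their call whichever library was left out, 32 lost it without at least 1, and 14 kept it under every alternative. None of 1362 alternative values of these contrasts reversed, and 177 fell past the threshold. The 50, the 18 and the 14 include the call of CCND2 between the lines in normoxic T, as do the counts between the lines below. CCND2 passed the filter on low counts only through MDA-MB-231, so that this call is no support for a difference. Leaving out a library moved the counts of called members as follows. Under H they ran from 0 to 1 in T and stayed at 1 in P of MCF10A, and from 0 to 2 in T and in P of MDA-MB-231. Under HPP they ran from 2 to 4 in T and 2 to 6 in P of MCF10A, and from 2 to 5 in T and 3 to 7 in P of MDA-MB-231. Under NPP they ran from 0 to 2 in T and 0 to 1 in P of MCF10A, and from 0 to 1 in T and 0 to 4 in P of MDA-MB-231. HPP against H, over both fractions, gave 2 to 8 in MCF10A and 3 to 9 in MDA-MB-231. P against T in normoxia gave 0 to 0 in MCF10A and 0 to 1 in MDA-MB-231, Te 0 to 0 in both lines, the lines in normoxia 4 to 6, and line differences 1 to 6 in T, with 6 without the first and 4 without the second NPP library of T in MCF10A, and 1 to 2 in P. Other settings moved counts too, of which not every move is listed, and the cause was not tested. The shares of all genes called under each setting or left-out library are not given. These counts therefore do not tell a trait of the members from a setting that calls more or fewer genes. DESeq2 called 2 members in T and 3 in P of MCF10A and 5 in T of MDA-MB-231 under NPP, 8 for HPP against H in MCF10A, 1 for P against T in MDA-MB-231, and 3 line differences in T and 3 in P. It also called 6 under HPP in P of MCF10A (5 by edgeR) and 7 in P of MDA-MB-231 (6 by edgeR). For HPP against H in T of MDA-MB-231 it called 5 (3 by edgeR), and between the lines in normoxia 6 (5 by edgeR). A threshold of 0.10 gave 2 under NPP in T of MDA-MB-231, 8 for HPP against H in MCF10A, 1 for P against T in MDA-MB-231, and 3 and 2 line differences in T and P. An absolute log2FC of at least 1, which by construction removes calls, left 1 in T and 1 in P under H, 2 and 2 under HPP, 1 in P under NPP and 2 for HPP against H in MDA-MB-231. Fits to only the 4 libraries compared, which have fewer samples, gave 0 under H in P of MCF10A, 0 for HPP against H in MCF10A, 0 in T and 1 in P under H, 0 in T and 0 in P under NPP, and 1 for P against T in MDA-MB-231, and 17 of the member calls were lost. Without a filter beyond 1 read, 3 were called under NPP in T and 1 for P against T of MDA-MB-231, and 2 line differences in P, while 3 of the 50 member calls were lost. With all gene classes, 0 were called under NPP in T of MDA-MB-231, and 4 of the 50 were lost. An offset for length, chosen after the data were seen, gave 1 under NPP in P and 8 for HPP against H in MCF10A, 1 for P against T in MDA-MB-231, and 2 and 3 line differences in T and P. Relative to TMM, the median of all genes shifted by −0.15 to 0.09 with DESeq2 size factors, −0.10 to 0.06 with upper quartiles and −0.18 to 0.27 without a filter, and no called member contrast changed direction, among 50 with DESeq2, 50 without a filter and the 7 of the joint fit to which upper quartiles were applied.

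The replicate numbers mark no stated batch shared by the treatments. Outside T of MCF10A, deviations of same-numbered libraries correlated over 0.1 in 3 of 6 pairs in P of MCF10A and in 4 of 6 in each fraction of MDA-MB-231. With a replicate block, 2 members were called under NPP in T of MDA-MB-231, with 2 line differences in T and 2 in P. With the replicate block within each fraction, 1 was called in T and 3 in P under NPP, 9 for HPP against H and 1 for P against T in MCF10A, 2 under NPP in T and 1 for P against T in MDA-MB-231, and 3 line differences in T and 3 in P. No call was lost with either block, and a block that paired the T and P library with the same number in their titles left Te at 0 calls in both lines. The paper describes total and polysomal mRNA as taken from each sample. It does not say that the number in the titles marks the sample. Deviations of T and P libraries that share this number correlated from −0.25 to 0.21 in MCF10A and from 0.0024 to 0.35 in MDA-MB-231.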
